A study of Mus musculus with 3 samples.

Results

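The 5 genes that encode the subunits of the transcription factor NF-kB in mice, Rel, Rela, Relb, Nfkb1 and Nfkb2, were measured in the cytosolic RNA of bone marrow-derived macrophages. They were chosen by symbol and make up 5 of the 55450 annotated genes in the deposited gene tables, with 36 of the 141864 transcripts in the transcript tables. The cells, macrophages grown from bone marrow of C57BL/6J mice, were given Lipid A at 100 ng/ml for 12 hours, were kept without it for 12 hours, and were stimulated again with the same dose for 25 minutes. Toll-like receptor 4 recognises Lipid A, the membrane anchor of bacterial endotoxin. All 3 libraries, biological replicates 1, 2 and 3, belong to 1 group and were made from 1 µg of total RNA after depletion of ribosomal RNA. The replicates are separate biosamples with the same donor entry, sex and age were not collected, and the SDs below may therefore measure technical spread. No unstimulated, singly stimulated or nuclear sample was analysed here, so no level below is a response to Lipid A.

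NF-kB proteins bind DNA as pairs of subunits that share a Rel homology domain. Rela (p65), Relb and Rel (c-Rel) carry a transactivation domain, while Nfkb1 and Nfkb2 encode the long precursors p105 and p100, whose processed forms p50 and p52 lack one. The unprocessed precursors hold ankyrin repeats and act as inhibitors, as the IkB proteins do. In resting macrophages the pairs are held in the cytoplasm. The canonical arm, which Toll-like receptor 4 engages, frees them through the IKK complex and degradation of IkB proteins, and the slower non-canonical arm processes p100 to p52 and frees Relb. Several subunit genes are themselves known targets of NF-kB.

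The libraries differed in depth and in the share of their TPM held by protein-coding genes. Expected counts over annotated genes summed to 55401000, 21255800 and 45619000 in replicates 1, 2 and 3, and nuclear protein-coding genes held 29.6%, 40.4% and 34.8% of the summed TPM. TPM is a level per length, scaled to the same total in each library. The macrophage markers were detected with at least 1 TPM in all libraries in 8 of 8 cases, with summed levels of 4924, 7591 and 5602 TPM. The 6 T cell markers summed to 0.18, 0.16 and 0.28 TPM, the 3 natural killer cell markers to at most 0.02 TPM, the 4 dendritic cell markers to at most 0.39 TPM and the 4 stromal markers to at most 0.21 TPM. The 5 B cell markers summed to 1.69, 3.93 and 1.47 TPM, nearly all from Cd79b. The 6 neutrophil markers summed to 9.77, 18.3 and 9.26 TPM, and their defining marker Ly6g had no counts, as had Cd3g and Gzma, which allows up to 3 counts in each library.

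All 5 subunit genes were expressed, with the precursor genes and Rela well above Relb and Rel per length. Each had at least 1 TPM in all 3 libraries, a limit that 42.3% of 21938 nuclear protein-coding genes passed. Nfkb1, on chr3:135584655-135691547 (minus strand, mm10), had 25.1, 30.01 and 29.0 TPM in replicates 1, 2 and 3. Nfkb2, on chr19:46304320-46312385 (plus strand), had 23.9, 24.2 and 26.2 TPM. Rela, on chr19:5637483-5648130 (plus strand), had 19.96, 23.0 and 20.7 TPM. The range of Nfkb1 overlapped that of Nfkb2, and the range of Rela lay just below both. Relb, on chr7:19606217-19629438 (minus strand), had 11.3, 9.98 and 13.9 TPM. Rel, on chr11:23736847-23770970 (minus strand), had 7.90, 10.5 and 8.24 TPM. The ranges of Relb and Rel overlapped each other and lay below those of the other 3 genes. In bulk RNA, fewer cells that express a gene and less RNA per cell cannot be told apart.

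The means were 28.02 ± 2.61 TPM for Nfkb1, 24.7 ± 1.25 TPM for Nfkb2, 21.2 ± 1.59 TPM for Rela, 11.7 ± 2.00 TPM for Relb and 8.89 ± 1.42 TPM for Rel (SD, n = 3). Among the 9269 nuclear protein-coding genes with at least 1 TPM in all libraries, 78.5% ranked below Nfkb1, 76.0% below Nfkb2, 71.9% below Rela, 55.0% below Relb and 46.4% below Rel. The median over the 5 subunit genes was 21.2 ± 1.59 TPM, against 9.90 ± 1.46 TPM over those expressed genes, and Rel sat near the middle of the ranking. The 5 genes together held 88.1, 97.7 and 98.0 TPM. The precursor genes Nfkb1 and Nfkb2 supplied 55.5%, 55.5% and 56.3% of that sum, and Rela supplied 22.7%, 23.6% and 21.1%. Relb supplied 12.8%, 10.2% and 14.2%, and Rel 8.97%, 10.8% and 8.41%. In these gene tables the summed share of the precursor genes had an SD of 0.436 percentage points. Alone, Nfkb1 and Nfkb2 had SDs of 1.13 and 1.25, against 1.22 for Rela, 1.23 for Rel and 2.02 for Relb. In the read-based tables the SD of the sum was 1.62 percentage points. The lowest SD there was 0.760, for Rel, which also held the smallest share.

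**Figure D1:**
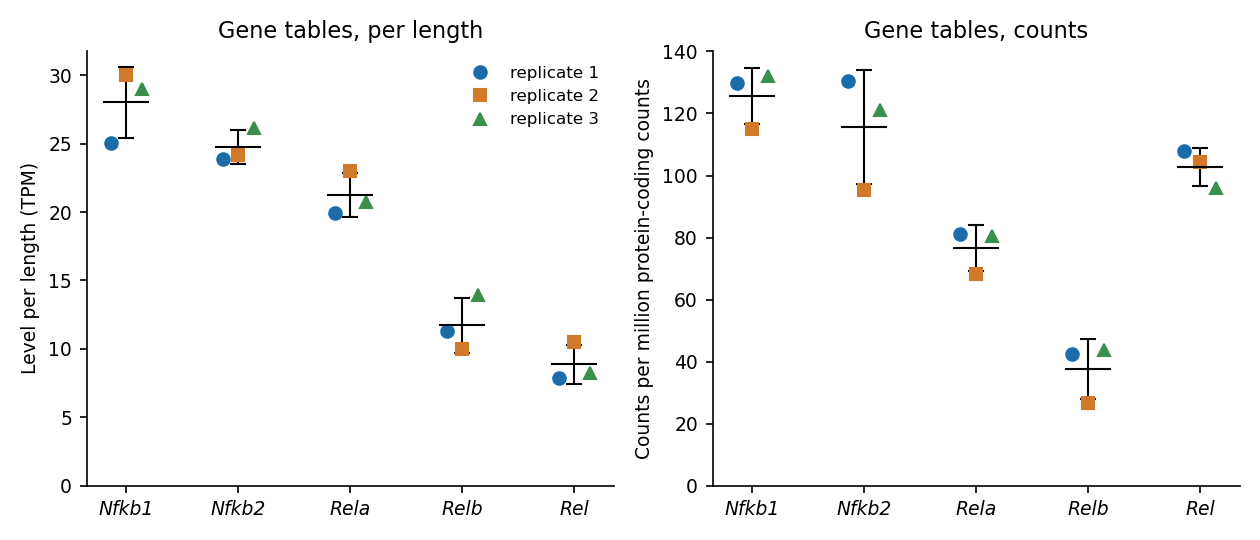
The left panel plots TPM and the right panel plots protein-coding CPM (counts per 1000000 counts of nuclear protein-coding genes) for the 5 subunit genes, with a point for each replicate and the mean ± SD over 3 replicates. Rel is the lowest gene per length, at 8.89 TPM, but lies above Rela and Relb in counts, at 103 CPM.

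Neighbours in this order did not all separate. Differences in the gene tables were taken within each library on the log2(TPM + 0.1) scale, and 9 of the 10 pairs kept the same sign in all 3 libraries. The exact two-sided sign-flip permutation test over 3 libraries cannot go below p = 0.25, which those 9 pairs reached, with an adjusted p of 0.278 over 10 pairs. Nfkb1 exceeded Nfkb2 by 0.07, 0.31 and 0.15, a mean log2 difference of 0.18 ± 0.12 (SD, n = 3; higher in 3 of 3 libraries). Nfkb2 exceeded Rela by 0.26, 0.07 and 0.33, a mean of 0.22 ± 0.14. That order was not kept in the read-based tables, where the mean log2 difference of Nfkb2 minus Rela was -0.034, with Nfkb2 higher in 1 of 3 libraries. Read-based Nfkb1 minus Rela was -0.07, -0.12 and 0.22, a mean of 0.010 ± 0.18 (SD, n = 3). Read-based Nfkb1 minus Nfkb2 was -0.04, 0.17 and 0.01, so its sign also differed between libraries. By the read-based estimates, only 7 of the 10 pairs kept the same sign in all 3 libraries. With counts divided by the unweighted mean transcript length, Nfkb2 minus Rela was -0.57 and Nfkb1 minus Rela -0.43. In the gene tables, the steps from Nfkb1 to Nfkb2 and from Nfkb2 to Rela were small beside the step from Rela to Relb. That step was 0.82, 1.20 and 0.57 with a mean of 0.86 ± 0.32. Relb minus Rel was 0.51, -0.08 and 0.75, a mean of 0.39 ± 0.42 with an exact permutation p of 0.5, so that the order of Relb and Rel was not the same in all libraries. The deposited credibility bounds show the same crossing. In replicate 2 they ran from 9.17 to 11.1 TPM for Relb and from 9.72 to 10.6 TPM for Rel, whereas in replicate 3 they ran from 13.2 to 14.5 TPM for Relb and from 7.84 to 8.35 TPM for Rel.

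Rel takes a different place when reads are counted without regard to length. Its single annotated transcript, Rel-201, has 7466 bases, of which 6194 lie in the last exon and 1764 are coding (588 codons). Rel had 5177, 2041 and 3887 expected counts, against 3894, 1335 and 3258 for Rela, and so more counts than Rela in every library. Relb had 2027, 519 and 1778 expected counts, the fewest in each library. As protein-coding CPM, that is, counts per 1000000 counts of nuclear protein-coding genes, the means were 126 ± 9.17 for Nfkb1, 116 ± 18.3 for Nfkb2, 103 ± 6.23 for Rel, 76.6 ± 7.28 for Rela and 37.6 ± 9.59 for Relb (SD, n = 3). The levels per length and the counts therefore order the genes differently, and only the levels per length compare one gene with another.

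In protein-coding CPM, Relb varied most between libraries and Rel least. Relb had 42.3, 26.5 and 43.8 protein-coding CPM in replicates 1, 2 and 3, a 1.65-fold range. The log2 ratio of replicate 2 to the mean of the others was -0.70 for Relb (counting SE 0.07), where 80% of expressed genes lay between -0.43 and 0.27. Nfkb2 had 131, 95.2 and 121 CPM, with a log2 ratio of -0.40 for replicate 2. Rela, at 81.3, 68.2 and 80.3, and Nfkb1, at 130, 115 and 132, were also lowest in replicate 2, with log2 ratios of -0.24 and -0.19. Thus 4 of the 5 subunit genes were lowest in replicate 2, a pattern that 35.3% of 9269 expressed genes showed. Rel, at 108, 104 and 95.9 CPM, was lowest in replicate 3, as were 46.7% of expressed genes. The SD of log2 CPM was 0.40 for Relb, larger than for 92.2% of expressed genes, and 0.09 for Rel, larger than for 17.5%. It was 0.24 for Nfkb2, 0.14 for Rela and 0.11 for Nfkb1, against a median of 0.17 over expressed genes. Replicate 2 also had the fewest counts and the highest sums of the neutrophil and B cell markers, at 18.3 and 3.93 TPM, and the part of these in the ratios was not tested.

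On the deposited TPM scale the ratios were different. Replicate 2 had the largest share of TPM in protein-coding genes, at 40.4%, and the part of that share in the ratios was not tested. The log2 ratio of replicate 2 was 0.18 for Rela and 0.15 for Nfkb1 on that scale, the opposite sign to the values per protein-coding count, and -0.05 for Nfkb2. Relb stayed below the other libraries in replicate 2 on both scales, with a log2 ratio of -0.34 in TPM.

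Genes with the closest profiles over the 3 libraries were found by the root mean square difference of centred log2 CPM, among the 6637 protein-coding genes that averaged 5 TPM or more. Those were Dhx38 and Zfp414 for Nfkb1, Txndc15 and Prkrip1 for Nfkb2, Golga5 and Lyrm2 for Rela, Rps13 and Tpt1 for Relb, and Zfp68 and Stx16 for Rel. The differences of the closest genes ran from 0.000423 for Dhx38 to 0.00382 for Rps13. With 3 libraries such closeness is common. Within 0.1 of Rel lay 2492 genes, within 0.1 of Nfkb1 1597, of Rela 1363, of Nfkb2 685 and of Relb 159. Among the subunit genes, Nfkb1 and Rela were closest to each other, at 0.0322, with 193 genes closer to Nfkb1 than Rela was.

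Each subunit gene other than Rel has several annotated transcripts, and 15 of the 36 held a mean of at least 5% of their gene's TPM in either kind of transcript table. The deposited tables include one set estimated from an alignment to the transcriptome and another estimated from the reads. The same transcript led in the 3 alignment-based tables for all 4 genes with several transcripts, as it did for 83.8% of 8616 expressed genes of that kind. It led in all 6 tables for Rela and Nfkb1, 2 of 4 genes, against 75.4% of expressed genes. Nfkb2 had a different leader in the 2 kinds of table, and Relb did in replicate 2.

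**Figure D2:**
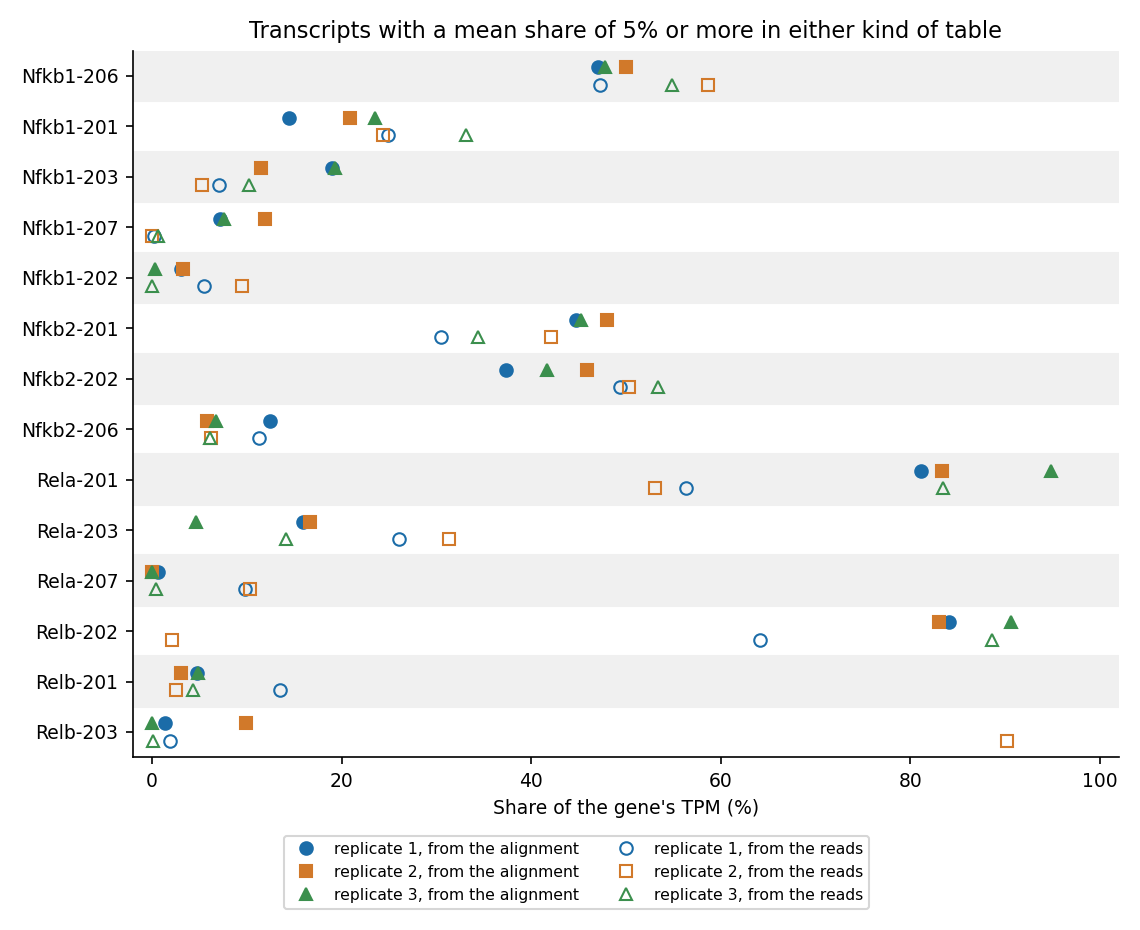
Each row is a transcript, and the horizontal axis is its share of its gene's TPM in percent, with filled symbols for the alignment-based tables and open symbols for the read-based tables of the same 3 replicates. The open square of Relb-203 at 90.2% and that of Relb-202 at 2.07% are replicate 2, whose filled squares lie at 9.91% and 83.1%.

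Nfkb1 RNA was mostly made up of transcripts with the full reading frame of p105, led by Nfkb1-206. Nfkb1-206 and Nfkb1-201 share the same 2913-base coding sequence (971 codons) and differ at their ends. Nfkb1-206 begins in a later first exon, stops 623 bases before the end of Nfkb1-201, and has 7 bases at its start that no other transcript of the gene holds. These 7 bases, in capitals, are shown because little else separates the transcript from its neighbours, and the coding frame begins within the window (GENCODE M21, mm10, chr3:135667770-135667799, minus strand).
Nfkb1-206 start: TGTACAGcttcaccatggcagacgatgatc
Nfkb1-206 held 47.0%, 50.05% and 47.8% of Nfkb1 TPM in replicates 1, 2 and 3 of the alignment-based tables (48.3% ± 1.58, SD, n = 3). In the read-based tables it held 47.2%, 58.7% and 54.8%. Nfkb1-201 held 14.4%, 20.9% and 23.5% in the alignment-based tables and 24.9%, 24.4% and 33.2% in the read-based tables. Nfkb1-206 was thus the higher of this pair in all 6 tables.

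Transcripts that skip an exon near the 3' end of Nfkb1 were estimated at very different levels by the 2 kinds of table. Nfkb1-203 lacks the 178-base exon at chr3:135589327-135589504 (minus strand), whose loss shifts the reading frame. It is annotated as a fragment that begins within the coding sequence, so the length of its frame is not compared here. The junctions are given here with bases of the skipped exon in capitals, because reads across them are what sets Nfkb1-203 apart (GENCODE M21, mm10; windows chr3:135589490-135590330, chr3:135585501-135589341 and chr3:135585501-135590330, minus strand, introns left out).
Nfkb1-201 into the exon: atggacaactatgagGTCTCTGGGGGTACC
Nfkb1-201 out of the exon: CGAGGCAGCACATAGatgaactccgggata
Nfkb1-203: atggacaactatgagatgaactccgggata
Nfkb1-203 held 18.9%, 11.5% and 19.3% of Nfkb1 TPM in the alignment-based tables but 7.02%, 5.22% and 10.3% in the read-based tables. Among transcripts that reach this end of the gene, the skipped form made up 17.4% ± 4.91 and 7.99% ± 2.53 in the 2 kinds of table (SD, n = 3). Both kinds gave replicate 2 the lowest value. Nfkb1-207, annotated as a target of nonsense-mediated decay, lacks a different exon of 67 bases at chr3:135590780-135590846. It held 7.22%, 11.9% and 7.63% of Nfkb1 TPM in the alignment-based tables and 0.236%, 0% and 0.660% in the read-based tables, so nearly all of its estimated level came from the alignment-based tables. Its deposited bounds in replicate 1 ran from 0.937 to 2.50 TPM. Nfkb1-202, which has no annotated coding sequence, held 3.07%, 3.27% and 0.345% in the alignment-based tables and 5.50%, 9.53% and 0% in the read-based tables.

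Nfkb2 RNA was assigned in part to transcripts with upstream starts and in part to 1 with a downstream start. Nfkb2-201 begins at position 46304744 and Nfkb2-202 at 46305696 of chromosome 19, which is 952 bases downstream, and both carry the same 2697-base frame of p100 (899 codons). Another transcript with that frame, Nfkb2-204, begins at 46304800. Nfkb2-204 is spliced to a coding exon that Nfkb2-202 runs into without a break. The 15 bases before that exon, in capitals, are the end of the first exon in Nfkb2-204. In Nfkb2-202 they are bases of the intron that Nfkb2-201 and Nfkb2-204 remove. They thus do not tell the downstream start from RNA that kept this intron. The windows are chr19:46304947-46305944 with the intron left out, and chr19:46305915-46305944 (GENCODE M21, mm10, plus strand).
Nfkb2-204: ACACATCAGCGACACgcgggcgtccgaaac
Nfkb2-202: CTCTCTTCACCTTAGgcgggcgtccgaaac
Nfkb2-201 held 44.7%, 47.95% and 45.2% of Nfkb2 TPM in the alignment-based tables, and Nfkb2-202 held 37.4%, 45.9% and 41.7%. The read-based tables gave 30.5%, 42.1% and 34.4% to Nfkb2-201, and 49.4%, 50.3% and 53.4% to Nfkb2-202. Both starts were thus given a large share in every library by both estimates, but which was the higher depended on the table. Nfkb2-201 holds no stretch of 31 bases that is absent from every other transcript of the 5 genes. For Nfkb2-202, 233 of 3111 such windows were its own. The first exon of Nfkb2-201 and part of that of Nfkb2-204 lie within an exon of AC114539.1, a noncoding gene on the opposite strand, and it is not stated whether counting used strand. Of the 4 transcripts that run the length of the gene, Nfkb2-202 made up 42.2% ± 3.80 in the alignment-based tables and 52.1% ± 1.84 in the read-based tables (SD, n = 3). The deposited bounds in replicate 2 ran from 8.96 to 12.7 TPM for Nfkb2-201 and from 9.02 to 12.4 TPM for Nfkb2-202, which overlap.

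**Figure D3:**
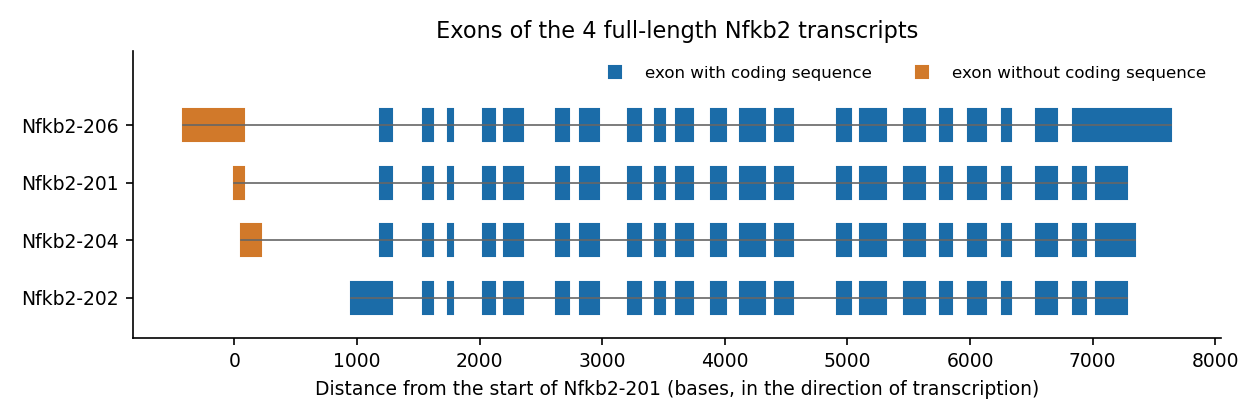
The map draws the exons of the 4 Nfkb2 transcripts that run the length of the gene against the distance in bases from the start of Nfkb2-201, with exons that hold coding sequence in blue and others in orange. Nfkb2-202 starts 952 bases downstream, and Nfkb2-206 keeps the last intron.

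Nfkb2-206 starts furthest upstream, at 46304320, keeps the 80-base last intron (chr19:46311693-46311772) and has a shorter frame of 2634 bases (878 codons). It held 12.5%, 5.83% and 6.73% of Nfkb2 TPM in the alignment-based tables and 11.3%, 6.24% and 6.12% in the read-based tables, highest in replicate 1 in both. The ends of Nfkb2-206 also overlap genes of the opposite strand, AC114539.1 at 4.69, 3.78 and 5.22 TPM and Psd at 3.65, 2.71 and 2.54 TPM. If counting did not use strand, reads of these genes and of Nfkb2 cannot be told apart where they overlap.

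Promoter windows of Nfkb2, Rel and Rela in the RefSeq table (GRCm38.p6, 250 bases before to 50 after a start) were searched on both strands for the NF-kB consensus motif of 10 letters, since Nfkb2 has several starts. All 3 Nfkb2 windows and the Rel window held at least 1 match and the Rela window held none, while 8.46% of 32851 windows of the same length held one. Matches, in capitals, are shown for the windows at the upstream Nfkb2 start (chr19:46304688-46304717 and chr19:46304716-46304745, plus strand), the downstream Nfkb2 start (chr19:46305695-46305724, plus strand) and the Rel start (chr11:23771042-23771071, minus strand).
Nfkb2 upstream start, distal: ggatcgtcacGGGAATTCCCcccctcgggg
Nfkb2 upstream start, proximal: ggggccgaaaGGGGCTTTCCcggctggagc
Nfkb2 downstream start: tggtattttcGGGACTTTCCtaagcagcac
Rel: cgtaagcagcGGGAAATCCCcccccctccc
The distal upstream Nfkb2 match and the Rel match each have a second match on the opposite strand shifted by 1 base. The downstream Nfkb2 match lies in 2 overlapping windows. It begins 10 bases after the start site of the first and ends 215 bases before that of the second. The first of these windows holds a further match on the opposite strand, 226 bases before its start site, which is not shown. A match is a description of letters, and no binding was measured.

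Rela RNA was led by Rela-201, which carries the 1647-base frame of p65 (549 codons). Rela-201 held 81.2%, 83.3% and 94.8% of Rela TPM in the alignment-based tables and 56.3%, 53.1% and 83.4% in the read-based tables, highest in replicate 3 in both. Most of the rest went to Rela-203, a short transcript of 786 bases annotated as a retained intron. Only 35 bases of intron 6 before exon 7 are its own, and the last 15 of these, in capitals, are shown beside the spliced junction of Rela-201 (GENCODE M21, mm10; chr19:5641166-5641195, and chr19:5640420-5641195 with the intron left out, plus strand).
Rela-203: CCGCTGATGTTTCAGgggcccccaacactg
Rela-201: cgatttttgataaccgggcccccaacactg
Rela-203 held 15.9%, 16.7% and 4.68% of Rela TPM in the alignment-based tables and 26.1%, 31.3% and 14.2% in the read-based tables. Since it is short, the same estimate amounted to 4.16%, 4.27% and 1.12% of the expected counts of Rela. Its deposited bounds in replicate 2 ran from 0.0490 to 6.10 TPM, so its level is poorly set by the reads. Rela-207, without annotated coding sequence, held 9.80%, 10.3% and 0.4004% in the read-based tables and at most 0.651% in the alignment-based tables.

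Relb RNA was mostly made up of transcripts with its longest frame of 1674 bases (558 codons), Relb-202 and Relb-203. These are annotated with splice sites shifted by 2 bases at the 9-base exon, which leaves the spliced sequence the same, and differ only in the last 6 bases of Relb-202, in capitals (GENCODE M21, mm10, chr7:19606217-19606246, minus strand).
Relb-202 end: ttcccaataaaaattagttttttgAGCCTT
Neither holds a stretch of 31 bases that is absent from every other transcript of these genes. The alignment-based tables gave Relb-202 84.1%, 83.1% and 90.6% of Relb TPM and Relb-203 1.33%, 9.91% and 0%. The read-based tables gave Relb-202 64.2%, 2.07% and 88.6% and Relb-203 1.90%, 90.2% and 0.0545%, so that the leading transcript changed in replicate 2. As a sum, the pair held 85.5%, 93.0% and 90.6% in the alignment-based tables and 66.1%, 92.3% and 88.6% in the read-based tables, and replicate 2 was then the highest by both estimates.

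The 9-base exon of Relb (chr7:19622926-19622934, minus strand) was included in most Relb RNA. Relb-201 lacks it and encodes 3 codons fewer, 555 in all. The exon is in capitals in the window from Relb-202, above the same place in Relb-201 (chr7:19619833-19627932, minus strand, introns left out).
Relb-202: aggaccacagATGAATTGGaaatcatcga
Relb-201: aggaccacagaaatcatcga
Transcripts with the exon made up 91.0%, 96.3% and 94.5% of Relb TPM in the alignment-based tables (93.9% ± 2.71, SD, n = 3) and 86.5%, 96.5% and 95.2% in the read-based tables (92.7% ± 5.44). Both kinds of table placed replicate 1 lowest and replicate 2 highest. Relb-201 itself held 4.70%, 3.10% and 4.89% in the alignment-based tables and 13.5%, 2.56% and 4.28% in the read-based tables.

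Counting only transcripts with each gene's longest annotated frame changed the order at the top. This sum was 20.2, 22.7 and 24.1 TPM for Nfkb2 and 15.4, 21.3 and 20.7 TPM for Nfkb1 in the alignment-based tables, so that Nfkb2 was the higher in 3 of 3 libraries. The mean log2 difference of Nfkb1 minus Nfkb2 on the log2(TPM + 0.1) scale was -0.23, against 0.18 over all transcripts. In the read-based tables it was -0.11, with Nfkb2 again the higher in 3 of 3 libraries. Longest-frame transcripts supplied 61.4%, 70.9% and 71.3% of Nfkb1 TPM, against 84.7%, 93.9% and 92.2% of Nfkb2 TPM, in the alignment-based tables. The sum was 16.2, 19.2 and 19.7 TPM for Rela, 9.64, 9.29 and 12.6 TPM for Relb, and 7.90, 10.5 and 8.24 TPM for Rel. The order of the last 3 genes by mean was the same as over all transcripts, and Relb and Rel crossed again in replicate 2. Nfkb1 and Rela crossed too, with Rela the higher in replicate 1. The mean log2 difference of Nfkb1 minus Rela was 0.049 ± 0.11, against 0.40 ± 0.08 over all transcripts (SD, n = 3). In the read-based tables it was 0.37 ± 0.13, with Nfkb1 the higher in 3 of 3 libraries.

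In expected counts per protein-coding count, the plotted transcripts of the subunit genes that hold intron sequence were highest in replicate 1. The nuclear noncoding RNAs were too. In alignment-based TPM, Rela-203 was highest in replicate 2, at 3.18, 3.84 and 0.97 TPM in replicates 1, 2 and 3. So was the sum of the nuclear noncoding RNAs, at 81270, 96388 and 49466 TPM, nearly all from Rn7sk. In read-based TPM, Relb-206 was lowest in replicate 1, at 0, 0.0519 and 0.0158 TPM. Rela-203 was again highest in replicate 2, at 4.30, 4.98 and 0.720 TPM. The other plotted transcripts were highest in replicate 1 there. Relb-206 holds no stretch of 31 bases that is absent from every other transcript of these genes. Nfkb1-204, Nfkb1-208 and Nfkb1-210, transcripts of Nfkb1 without a coding sequence that hold intron bases, had together 620, 62.1 and 49.0 expected counts in replicates 1, 2 and 3. Of their 31-base windows, 1825 of 3353, 3984 of 4119 and 1858 of 1971 were found in no other transcript of the 5 genes. The counts were 9.97%, 2.76% and 0.916% of the counts of Nfkb1, or 12.9, 3.17 and 1.21 protein-coding CPM. All transcripts annotated as retained introns held 12.5%, 5.44% and 1.197% of the counts of Nfkb1, 7.998%, 0.871% and 1.43% of those of Relb, 1.48%, 0.275% and 0.351% of those of Nfkb2, and 4.16%, 4.27% and 1.12% of those of Rela. The share was highest in replicate 1 for 3 of these 4 genes, as it was for 77.2% of 5622 expressed genes with such a transcript. Over those 5622 genes together the share was 4.10%, 2.81% and 2.38%, and the median over the genes was 2.59%, 0.679% and 0.593%.

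The nuclear noncoding RNAs were all highest in replicate 1 per protein-coding count. Malat1, a long noncoding RNA kept in the nucleus, had 8331, 3481 and 1444 protein-coding CPM, and Rn7sk, the RNA that holds the elongation factor P-TEFb inactive, had 17581, 13714 and 10584. Neat1, the scaffold of paraspeckles, had 924, 212 and 152. The other members of that list of 5, Xist and Kcnq1ot1, were also highest in replicate 1. Xist had 803, 42.3 and 23.1 protein-coding CPM and Kcnq1ot1 had 93.5, 3.37 and 2.66. Of the 5, 4 had at least 1 TPM in all libraries. The part of nuclear RNA in the transcripts with intron sequence was not tested. Without replicate 1 the share of Nfkb1 TPM in transcripts with no coding biotype was 3.70%, against 6.60% ± 5.37 over all 3 libraries (SD, n = 3).

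**Figure D4:**
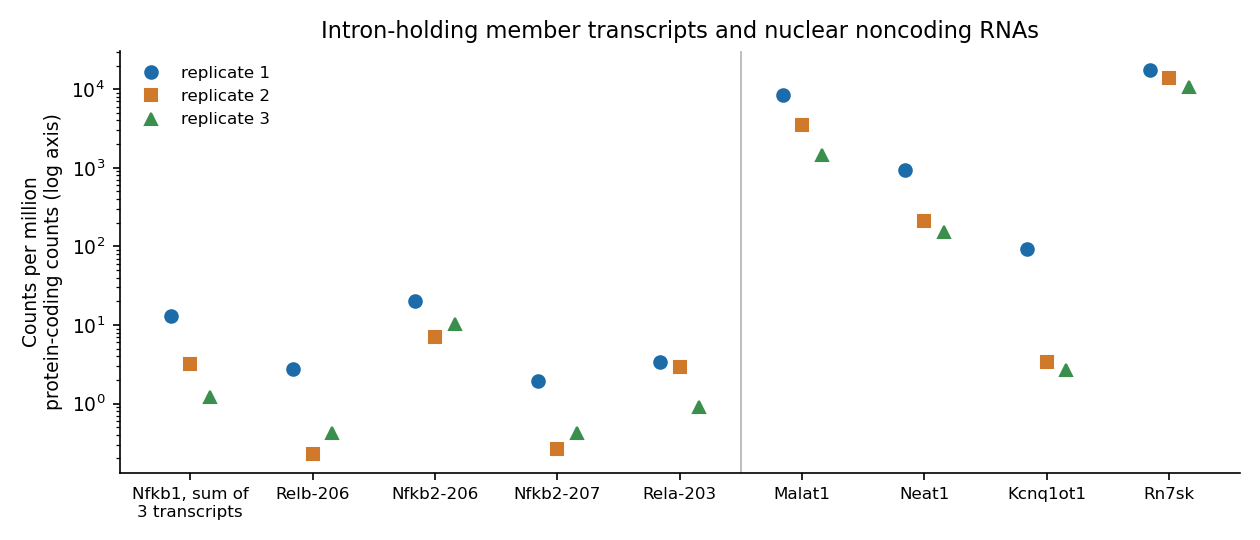
Protein-coding CPM are plotted on a log axis for transcripts of the subunit genes that hold intron sequence (left of the line) and for nuclear noncoding RNAs (right), with a symbol for each replicate. By these expected counts replicate 1 is the highest for every feature shown, and for the 3 Nfkb1 transcripts together it lies at 12.9 against 3.17 and 1.21. In read-based TPM this does not hold for Relb-206 and Rela-203.

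The regulators of NF-kB were expressed alongside the subunits. All 39 genes of 5 pathway lists had at least 1 TPM in all 3 libraries, against 42.3% of nuclear protein-coding genes, whose median was 0.193 ± 0.0306 TPM (SD, n = 3). The lists are of well-known pathway genes, and nothing particular to them is read from that count. Of the 6 genes listed as IkB inhibitors, with a median of 19.8 ± 1.09 TPM, Nfkbia led. Nfkbia encodes IkB-alpha, which holds Rela pairs in the cytoplasm, and had 150, 108 and 195 TPM. It exceeded Rela in each library, by 2.90, 2.22 and 3.22 on the log2(TPM + 0.1) scale, a pair picked after its values were seen. Nfkbiz, which encodes the nuclear IkB protein IkB-zeta, had 26.2, 21.4 and 21.8 TPM, within the range of Nfkb1, Nfkb2 and Rela.

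Among the 8 genes of the IKK complex and its activating kinases the median was 8.19 ± 0.774 TPM. Tab2, an adaptor that binds polyubiquitin and carries the kinase TAK1, had 28.3, 42.6 and 31.8 TPM, and Ikbkb, the catalytic subunit IKK-beta of the canonical arm, had 20.4, 23.8 and 21.97 TPM. Among the 7 partners of p105 and parts of the ubiquitin ligase that marks IkB proteins, the median was 16.4 ± 0.751 TPM. The ligase subunits Rbx1 and Skp1a had 54.7 ± 7.31 and 37.8 ± 11.1 TPM (SD, n = 3). Among the 8 receptors and ubiquitin ligases of the non-canonical arm the median was 20.1 ± 3.91 TPM. The TNF receptor 2 gene Tnfrsf1b had 147, 303 and 229 TPM and was lowest in replicate 1, and Birc3, which encodes the ligase cIAP2, had 39.4, 36.9 and 37.9 TPM.

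The 10 textbook target genes had the highest median of these lists, 65.6 ± 4.10 TPM. The chemokine gene Ccl5 had 4968, 5148 and 6004 TPM, and Tnf, which encodes tumour necrosis factor, had 162, 160 and 247 TPM. Both were highest in replicate 3. Since no unstimulated cells were analysed here, these values do not show how much of any level was due to NF-kB.

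**Figure D5:**
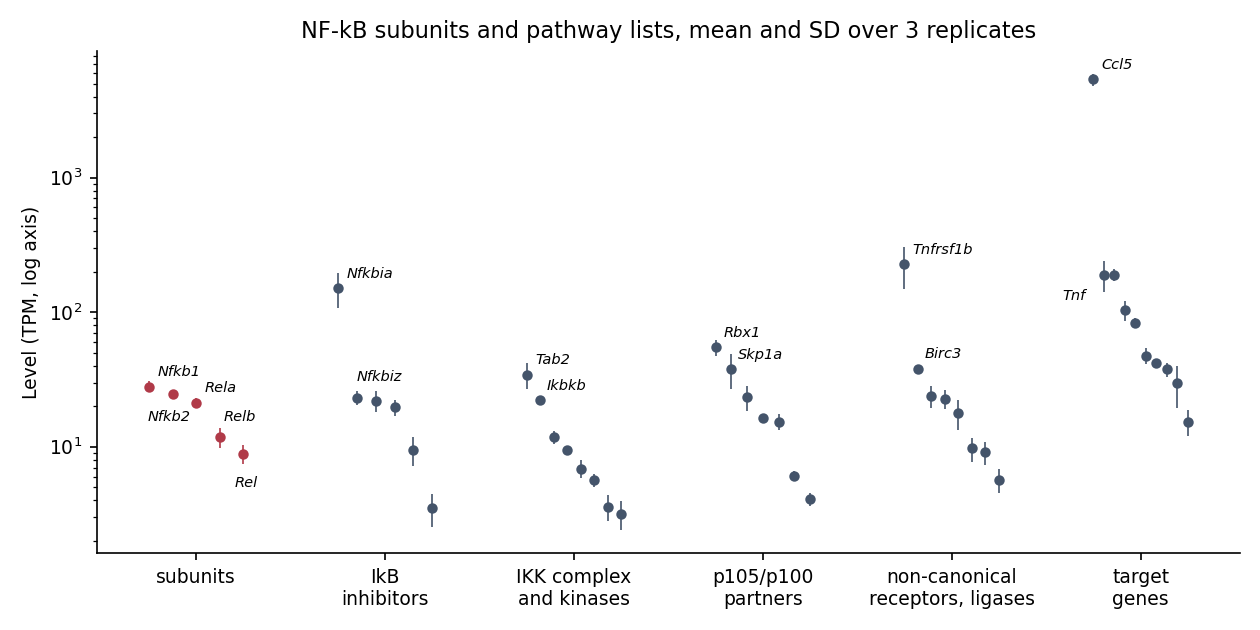
Each point is the mean TPM of a gene over 3 replicates on a log axis, with bars of ± SD, for the 5 subunit genes in red and for the genes of 5 pathway lists in grey, of which the top 2 are named. The subunit genes lie between 8.89 and 28.02 TPM, below Nfkbia at 151 TPM and far below Ccl5 at 5373 TPM.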

How the data were processed

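For every library, per the file headers, the authors supplied 3 tables: genes and transcripts with expected counts, TPM and bounds of TPM, and transcripts again with estimated counts and TPM. Per the deposited description files, the first 2 came from a transcriptome alignment and the last from the reads directly, with mouse build mm10 and GENCODE M21. The aligner, the counting programs, the level of the bounds and any strand setting were not given in the sources used here. The authors' expected counts are not normalized, and their TPM are scaled within a library. The submitters' isoform percent in those tables was not used, and shares were computed from TPM.

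Of 81881 gene identifiers, 55450 matched the annotation. Where a gene has no counts, up to 3 counts remain possible, or 0.0626, 0.153 and 0.0740 protein-coding CPM by replicate, a limit for counting error only. Levels were averaged as TPM. Differences between genes used log2(TPM + 0.1), with exact sign-flip tests and Benjamini-Hochberg adjustment over 10 pairs. Library ratios used expected counts per 1000000 counts of nuclear protein-coding genes. For dispersion, edgeR 4.0.16 (R 4.3.3) was run on expected counts rounded to whole numbers (intercept only, TMM, filterByExpr), with DESeq2 1.42.0 as an alternative. In simulated counts a larger coefficient of variation given to single genes was not recovered, so single-gene coefficients are not reported and the spread is given as the SD of log2 CPM. The remaining steps were run in Python 3.11.15 with pandas 2.3.3, numpy 2.4.6 and matplotlib 3.10.9. Sequences came from GENCODE M21 transcripts and RefSeq promoters, which matched 3 of the 5 genes (Rel, Rela and Nfkb2, not Relb or Nfkb1).

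Transcripts were named by a mean share of at least 5% in either kind of table. Nfkb1-204, Nfkb1-208, Nfkb1-210, Nfkb2-204, Nfkb2-207 and Relb-206 fall outside that rule and were chosen after their values were seen. Named pathway genes were the 2 with the highest mean TPM in each list, and for each subunit gene the 2 genes with the closest profile were named. The members and lists were chosen with earlier results of these data known.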

Additional observations from a re-analysis of the deposited data

How the results depend on the processing

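No paired analysis was possible because the 3 libraries form 1 group with no other group to pair them with; differences between genes were taken within libraries. Of 100 values of the 10 pair differences under other settings, 95 kept their sign. Other pseudocounts and leaving out a replicate could not change the sign of the 9 pairs with 1 sign in all 3 libraries. These settings are part of the count, which is therefore no measure of robustness. Counts divided by the unweighted mean transcript length gave -0.43 for Nfkb1 minus Rela and -0.57 for Nfkb2 minus Rela, and the read-based tables gave -0.034 for Nfkb2 minus Rela. The read-based mean of Nfkb1 minus Rela kept its sign at 0.010, but Nfkb1 was higher in only 1 of 3 libraries. Counting only longest-frame transcripts, a setting chosen after seeing the data, gave -0.23 and, in the read-based tables, -0.11 for Nfkb1 minus Nfkb2. The read-based tables gave lower mean levels, 4.17 TPM for Rel, 12.5 for Rela, 5.55 for Relb, 12.1 for Nfkb1 and 11.7 for Nfkb2. These means hide a low replicate 3. The 5 genes together had 61.8, 54.4 and 21.8 read-based TPM in replicates 1, 2 and 3. Nuclear protein-coding genes held 20.5%, 21.4% and 7.95% of the read-based TPM. TPM of the gene tables, rescaled to nuclear protein-coding genes, gave 25.5 for Rel, 61.3 for Rela, 34.3 for Relb, 80.7 for Nfkb1 and 71.9 for Nfkb2. The mean share of the leading transcript in the read-based tables was 64.3% for Rela-201, 51.6% for Relb-202, 53.6% for Nfkb1-206 and 35.7% for Nfkb2-201, and as a share of expected counts it was 96.1% for Rela-201 and 44.0% for Nfkb2-201. The share without a coding biotype was 30.7% for Rela and 7.85% for Relb in the read-based tables, and 3.23% of expected counts for Rela. The library ratio in TPM was 0.18 for Rela, 0.15 for Nfkb1, -0.34 for Relb and -0.048 for Nfkb2 in replicate 2, and for Rel in replicate 3 it was -0.048 with TMM and -0.021 with DESeq2 size factors. The causes of these changes were not tested. Leaving out each replicate in turn was no check of the levels and shares, whose mean over 3 libraries cannot move beyond its SD that way. Relb minus Rel, whose sign differed between libraries, then stayed between 0.22 and 0.63. Of the 39 pathway genes, 35 passed a limit of 5 TPM and 35 passed 1 TPM in the read-based tables. Low counts, such as the 519 expected counts of Relb in replicate 2, limit the precision of the shares.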
